A study of Mus musculus with 48 samples.

Results

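TRBV12-1 and TRBV12-2 are the 2 functional V segments of the mouse T cell receptor (TCR) beta chain that make up the Vβ5 family. Their clones were taken as all rows of the deposited clone tables that name either segment, 59812 rows of TRBV12-1 and 77578 of TRBV12-2 among 959731 rows over 26 V segments. The tables came from 4 female C57BL/6 mice (C57BL/6J in the study's methods) of 8 weeks, numbered 5 to 8, which carried Lewis lung carcinoma (LLC) tumors, a transplanted C57BL/6 lung tumor line, under the skin of both sides of the back, and all material was taken on day 13. From each side CD4+ and CD8+ T cells were sorted from 2 fragments of the tumor and from the draining brachial lymph node (dLN), which gave 32 tumor and 16 dLN libraries. All tumor T cells that were not reached by an intravenous CD45.2 antibody were sorted, whereas dLN cells were also gated on high CD44, so that organ and CD44 gate cannot be told apart. No mouse without a tumor was analysed here, every mouse carried the same cell line, and the files hold only TCR sequences, so the subset labels could not be checked against CD4 or CD8 transcripts.

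A TCR beta chain is made when 1 V, 1 D and 1 J segment are joined, with bases trimmed and added at the joints. The joint lies in the complementarity-determining region called CDR3, the loop that reads most of the peptide, while the V segment encodes the loops that lie mainly over the MHC molecule. Vβ5 is best known from the OT-I and OT-II transgenic receptors, and it is lost in mouse strains that express I-E together with certain endogenous retroviral superantigens. C57BL/6 mice lack I-E and keep Vβ5 T cells.

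In the GENCODE annotation of GRCm38, Trbv12-1 lies on the plus strand at chr6:41113550-41114067 and Trbv12-2 at chr6:41118851-41119364, 5301 bases further on. Both are V genes of 2 exons, and the remaining member, Trbv12-3, is annotated as a pseudogene. The second exons, 293 bases each, are identical at 89.1% of bases. The last 100 bases of each second exon are shown because this end is what the reads had to tell apart, and capitals mark the 5 bases that differ.
TRBV12-1, chr6:41113968-41114067, plus strand: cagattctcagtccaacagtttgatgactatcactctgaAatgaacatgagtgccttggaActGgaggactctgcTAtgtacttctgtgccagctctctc
TRBV12-2, chr6:41119265-41119364, plus strand: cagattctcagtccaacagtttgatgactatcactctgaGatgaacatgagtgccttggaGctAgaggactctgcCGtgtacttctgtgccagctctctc
The final 15 bases, which open the CDR3, did not differ, and the nearest difference lay 8 bases before them. The 2 segments are therefore named from bases outside the CDR3. In 1690 cases the same J segment and CDR3 nucleotides stood under both segments in 1 tumor or node, 3.09% of TRBV12-1 and 2.40% of TRBV12-2 clones. These pairs held 15.3% of TRBV12-1 and 31.0% of TRBV12-2 reads, but the rarer clone of a pair had a median of 6 reads and all rarer clones together held 0.530% of TRBV12 reads.

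Libraries held 326582 to 4840722 deposited reads and were drawn down to 6 reads per sorted cell, 131070 to 2035380 reads. Reads with the same V, J and CDR3 nucleotides formed a clone, and both fragments of each tumor were summed. A tumor or node then held 6700 to 79278 clones. Depth moved with the groups, with a median of 2715100 drawn reads per CD8 tumor, 409260 per CD8 dLN, 885882 per CD4 tumor and 276699 per CD4 dLN, and its part in the organ differences was not tested. Shares were averaged over left and right, and the mouse was the replicate (n = 4 per group). At 95% confidence the Wilson half-width of a single tumor or node was at most 0.324 percentage points for a share of reads, with the sorted cells as trials, and 0.564 for a share of clones. Such intervals and the 3-read limits given below cover counting error only, because the libraries had no molecular identifiers.

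Both segments were far more common in CD8 than in CD4 T cells, in every mouse and in both organs. In the dLN, TRBV12-1 took 6.81% ± 0.413 (SD, n = 4) of CD8 reads and 1.90% ± 0.230 of CD4 reads, a 3.59-fold difference. TRBV12-2 took 9.22% ± 0.269 of CD8 and 2.08% ± 0.262 of CD4 dLN reads, a 4.44-fold difference. Together they made up 16.02% ± 0.648 of CD8 and 3.97% ± 0.465 of CD4 dLN reads. The mice of each dLN group lay close to each other, from 6.27% to 7.15% for TRBV12-1 and from 8.88% to 9.54% for TRBV12-2 in CD8, and from 1.59% to 2.14% and from 1.86% to 2.44% in CD4.

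In the tumors the CD8 shares varied more among mice than in the dLN. TRBV12-1 took 3.33%, 2.19%, 4.21% and 2.98% of CD8 tumor reads in mice 5, 6, 7 and 8, against 0.935%, 0.850%, 0.633% and 1.16% of CD4 tumor reads. The groups did not overlap, and the means of 3.18% ± 0.835 and 0.894% ± 0.216 differed 3.55-fold. TRBV12-2 took 4.30%, 3.99%, 9.74% and 7.39% of CD8 tumor reads and 1.53%, 1.78%, 2.38% and 2.14% of CD4 tumor reads. Mice 7 and 8 stood above mice 5 and 6 in both subsets, and the means of 6.36% ± 2.73 and 1.96% ± 0.378 differed 3.25-fold.

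Across the 22 V segments with a mean of at least 0.1% of reads, 4 mice against 4 give an exact two-sided permutation p no smaller than 0.0286, which is reached only where the groups do not overlap. TRBV12-1 and TRBV12-2 were both among the segments higher in CD8 without overlap, a set that held 40.9% of the tested segments in the dLN and 13.6% in the tumors. In the dLN the differences passed the exact permutation test after Benjamini-Hochberg adjustment over 22 segments (adjusted p = 0.0314 for each segment), and the CD8 over CD4 ratios of TRBV12-2 and TRBV12-1 ranked first and second of all segments. In the tumors the adjusted p of the exact permutation test was 0.0898 for each segment, since few segments separated the groups there, and edgeR's quasi-likelihood test with library sizes only gave adjusted p = 0.00546 for TRBV12-1 and 0.00759 for TRBV12-2. TRBV12-1 had the largest CD8 over CD4 ratio of reads in the tumors and TRBV12-2 the third largest. Where both clones of every pair listed under both segments were left out, the TRBV12-2 tumor difference of 4.40 percentage points was 2.08.

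**Figure D1:**
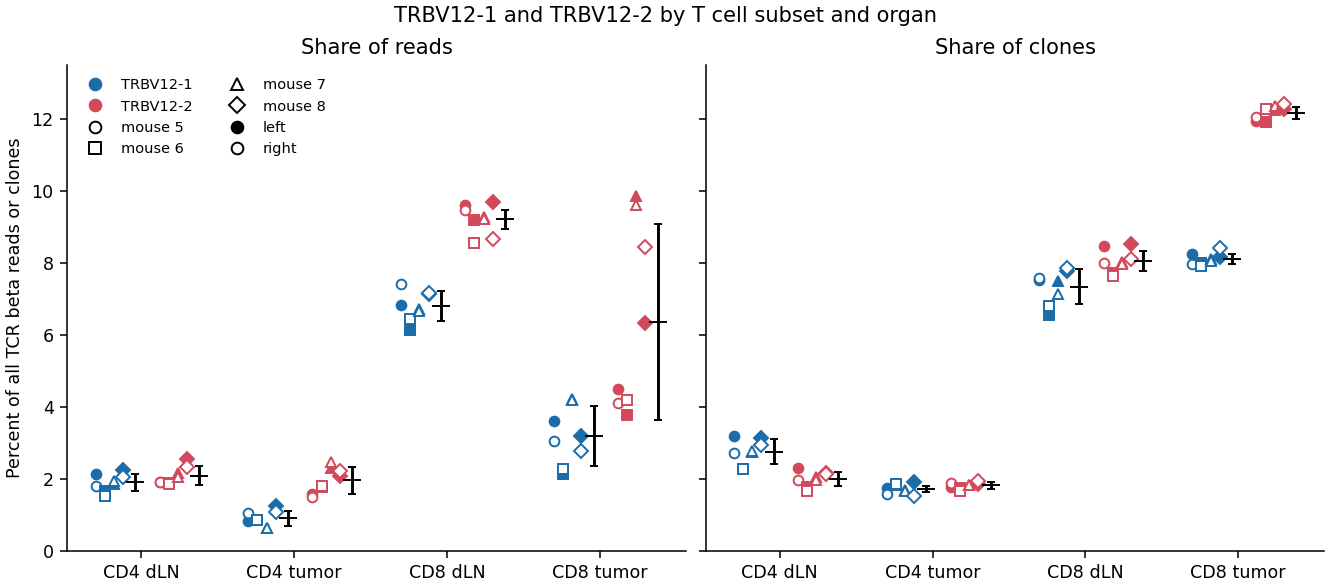
Percent of all TCR beta reads (left) or distinct clones (right) that used TRBV12-1 (blue) or TRBV12-2 (red) in each tumor or node. Symbols give the mouse, filled points the left and open points the right side, and bars the mean and SD of 4 mouse means; every CD8 point lies above every CD4 point of the same organ and segment, and CD8 tumor reads spread most, from 3.99% to 9.74% for TRBV12-2 mouse means.

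Counting each clone once, so that a large clone weighs no more than any other, gave a larger CD8 bias than reads in the tumors and a smaller one in the dLN. In CD8 tumors TRBV12-1 made up 8.11% ± 0.136 of distinct clones and TRBV12-2 12.2% ± 0.168, with mice from 7.96% to 8.28% and from 12.0% to 12.3%. In CD4 tumors the shares were 1.72% ± 0.0817 and 1.81% ± 0.0864, so that CD8 exceeded CD4 4.71-fold and 6.73-fold. In the dLN TRBV12-1 made up 7.34% ± 0.491 of CD8 and 2.75% ± 0.344 of CD4 clones, and TRBV12-2 8.06% ± 0.280 and 1.998% ± 0.20, ratios of 2.67 and 4.03. All 4 differences passed the exact permutation test (adjusted p = 0.0331 in the tumors and 0.0299 in the dLN). Of the 22 segments, 27.3% were higher in CD8 clones without overlap in the tumors and 40.9% in the dLN. TRBV12-2 had the largest ratio in both organs, with TRBV12-1 second in the tumors and the fourth in the dLN.

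The CD8 over CD4 ratio of clones was larger in the tumors than in the dLN of 4 of 4 mice. Its log2, averaged over mice, was 1.42 ± 0.09 in the dLN and 2.24 ± 0.08 in the tumors for TRBV12-1, and 2.02 ± 0.10 and 2.75 ± 0.06 for TRBV12-2. The differences of 0.82 and 0.73 had an exact permutation p of 0.0286 each and an adjusted p of 0.0571 over the 4 ratios compared, so neither passed after adjustment. By reads the log2 ratios were 1.82 ± 0.64 in tumors and 1.85 ± 0.10 in dLN for TRBV12-1 (exact permutation p = 0.971). For TRBV12-2 they were 1.62 ± 0.38 and 2.16 ± 0.18, lower in the tumors of 4 of 4 mice (exact permutation p = 0.0571, adjusted p = 0.0762). Without the clones listed under both segments this difference went from −0.54 to −1.14, and those by clones were 0.80 and 0.73, each of the 3 passing (exact permutation test, adjusted p = 0.0381). Leaving out only the rarer clone of each pair, a setting added after seeing the data, changed no call. The tumor minus dLN direction of TRBV12-1 by reads differed among mice, with 1 of 4 higher in the tumor.

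Some CD4 clones also stood in the CD8 library of the same organ and mouse. In the tumors this held for 4.04% ± 2.41 of CD4 TRBV12-1 clones and 5.80% ± 2.91 of CD4 TRBV12-2 clones, against 2.31% ± 0.908 of CD4 clones of all other V segments. Their share of CD4 tumor reads was 5.57% ± 7.03, 18.9% ± 24.04 and 12.7% ± 11.2. Without clones at least 100 times rarer than in the other subset, the CD8 minus CD4 difference in tumor clones was 6.39 percentage points for TRBV12-1 and 10.4 for TRBV12-2, as against 6.39 and 10.4 with them.

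**Figure D2:**
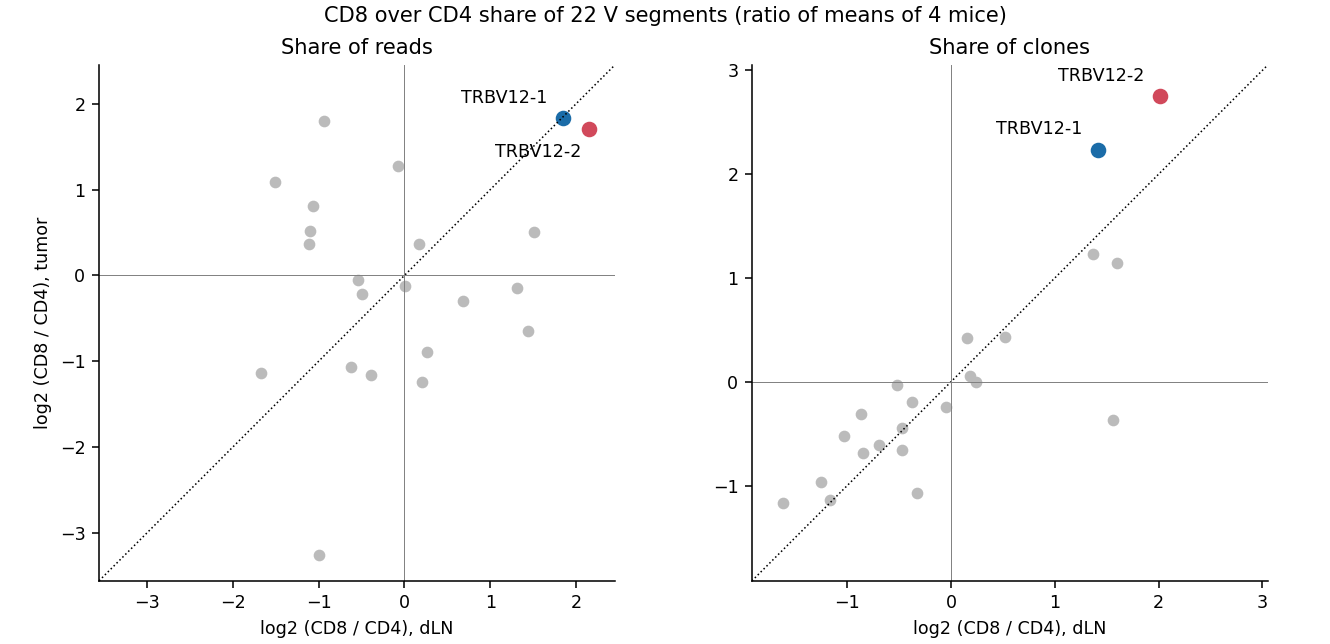
Log2 of the CD8 over CD4 share in the dLN (x) and in the tumors (y) for the 22 V segments, by reads (left) and by clones (right), each from means of 4 mice; the dotted line marks equal ratios. By clones TRBV12-1 and TRBV12-2 sit at the upper right end and above the line, at log2 ratios of 2.24 and 2.75 in the tumors and 1.42 and 2.01 in the dLN.

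Between organs, the CD8 shares of clones passed the exact permutation test and those of reads did not. In CD8 cells both segments held a larger share of clones in the tumors than in the dLN, by 0.766 percentage points for TRBV12-1 and 4.13 for TRBV12-2 (exact permutation test, adjusted p = 0.0419 for each), a direction that 22.7% of segments took without overlap. With a minimum of 6 reads per clone the difference of TRBV12-1 was 0.612 and no longer passed (adjusted p = 0.0698). Their share of CD8 reads was lower in the tumors in the mean. TRBV12-1 was 3.63 percentage points lower than in the dLN, without overlap of the mice, as did 22.7% of segments (exact permutation test, adjusted p = 0.0629). TRBV12-2 was 2.86 percentage points lower with 1 of 4 mice, mouse 7, higher in the tumor (exact permutation test, adjusted p = 0.224), and 4.96 lower without the clones listed under both segments (adjusted p = 0.0571). For reads of CD8 tumor against dLN the scaling mattered, since TMM moved the log2 ratios up by a median of 0.74 over the 22 segments against library sizes only. With TMM edgeR gave a log2 ratio of −0.34 for TRBV12-1 and of 0.11 for TRBV12-2, against −1.10 and −0.53 with library sizes only. With library sizes only the TRBV12-1 difference passed edgeR's test (adjusted p = 0.0117).

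In CD4 cells TRBV12-1 passed the test between organs by clones, and TRBV12-2 did not; the difference between the segments was not tested. Its share of clones was 1.03 percentage points lower in the tumors than in the dLN (exact permutation test, adjusted p = 0.0449, and 0.0510 to 0.0571 with minimums of 2 and 6 reads or no filter on V segments), the lowest tumor over dLN ratio of the 22 segments, of which 36.4% were lower without overlap. Its share of CD4 reads was 1.00 percentage points lower, also without overlap, as for 22.7% of segments (adjusted p = 0.0898), and this ratio ranked last as well. TRBV12-2 differed by −0.186 percentage points of clones (adjusted p = 0.189) and by −0.122 of reads (adjusted p = 0.838). By clones both segments fell in the order CD8 tumor, CD8 dLN, CD4 dLN and CD4 tumor, and of the neighbours in this order only the CD4 groups of TRBV12-2 overlapped. By reads the order was CD8 dLN, CD8 tumor, CD4 dLN and CD4 tumor, with no overlap of neighbours for TRBV12-1, and for TRBV12-2 with overlap between the CD8 groups and between the CD4 groups.

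TRBV12 clones of CD8 tumors held a smaller share of reads than of clones, as did those of most V segments. The share of reads divided by the share of clones was 0.392 ± 0.103 for TRBV12-1 and 0.520 ± 0.218 for TRBV12-2 in CD8 tumors, against 0.928 ± 0.0154 and 1.14 ± 0.0254 in CD8 dLN. In CD8 tumors the mean ratio was below 1 for 13 of the 22 segments, with a median of 0.702 and the lowest value of 0.314 at TRBV1, and TRBV12-1 and TRBV12-2 ranked 3 and 7 from the lowest. In CD4 cells it was 0.520 ± 0.128 and 1.08 ± 0.190 in the tumors and 0.690 ± 0.0190 and 1.04 ± 0.104 in the dLN. Among CD8 tumor clones below 0.001% of reads, TRBV12-1 made up 8.35% ± 0.188 and TRBV12-2 11.3% ± 0.730. Between 0.001% and 0.01% they made up 6.71% ± 0.491 and 17.2% ± 1.93. Among the 446 clones of 0.1% to 1%, counted over 8 tumors, 16 were TRBV12-1 and 22 TRBV12-2, and among the 137 above 1% the numbers were 3 and 5, means over mice of 2.19% ± 2.88 and 4.02% ± 3.63.

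TRBV12-2 had its highest share at intermediate abundance in CD8 cells, whereas in CD8 tumors the mean share of TRBV12-1 was lower in each more abundant class. In CD8 dLN, TRBV12-2 went from 6.95% ± 0.253 of clones below 0.001% to 13.0% ± 0.539 of clones between 0.01% and 0.1%, while TRBV12-1 went from 7.29% ± 0.383 over 7.43% ± 0.570 between 0.001% and 0.01% to 4.50% ± 0.749. Between the first and the last of these classes each segment moved in the same direction in 4 of 4 mice. In CD4 tumors the classes below 0.001% and of 0.01% to 0.1% held 2.01% ± 0.2495 and 0.828% ± 0.1703 of TRBV12-1 and 1.64% ± 0.143 and 2.21% ± 0.0676 of TRBV12-2. No TRBV12 clone was among the 27 CD4 tumor clones above 1%. The classes are fixed shares of reads, which clones can fall in the lowest one depends on the depth of each library, and no test was made between them.

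**Figure D3:**
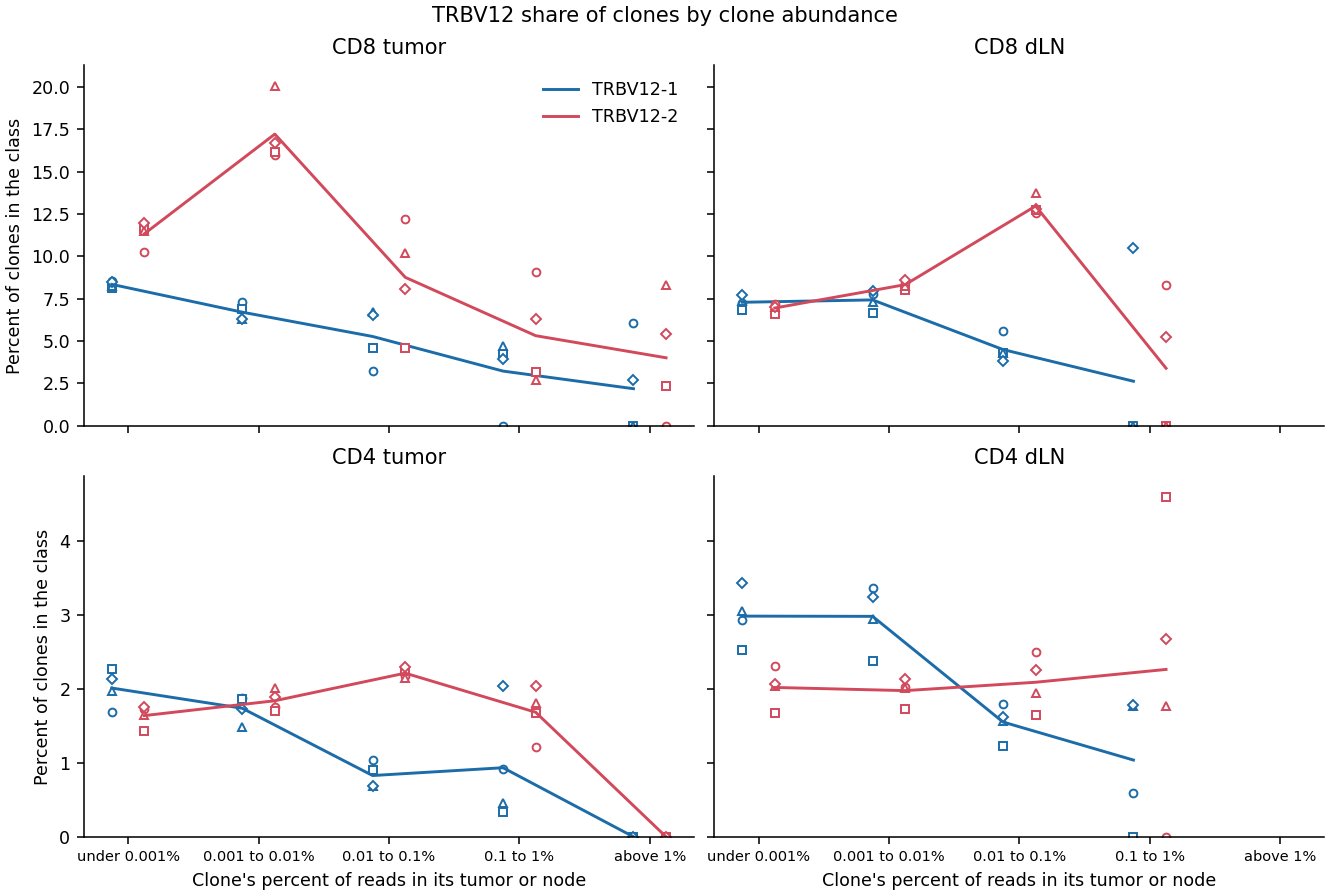
Percent of the clones in each abundance class that used TRBV12-1 (blue) or TRBV12-2 (red), by subset and organ; points are mice, lines their means, and the class above 1% is left out for dLN, where it held 2 clones in each subset. In CD8 tumors TRBV12-2 peaks at 17.2% of clones between 0.001% and 0.01% of reads and falls to 4.02% above 1%.

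Single clones took up a large part of the TRBV12 reads in some CD8 tumors, and the CDR3 nucleotides of the most abundant CD8 tumor clone of each segment and mouse are shown to identify them. Capitals mark the bases between the last V base and the first J base as the deposited tables place them.
TRBV12-1 with TRBJ1-2, mouse 5: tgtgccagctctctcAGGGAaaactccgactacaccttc
TRBV12-1 with TRBJ2-3, mouse 6: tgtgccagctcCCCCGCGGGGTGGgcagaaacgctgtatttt
TRBV12-1 with TRBJ1-2, mouse 7: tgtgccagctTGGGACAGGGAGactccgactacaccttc
TRBV12-1 with TRBJ1-1, mouse 8: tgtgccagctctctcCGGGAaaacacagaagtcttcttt
TRBV12-2 with TRBJ2-2, mouse 5: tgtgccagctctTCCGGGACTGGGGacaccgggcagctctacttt
TRBV12-2 with TRBJ1-3, mouse 6: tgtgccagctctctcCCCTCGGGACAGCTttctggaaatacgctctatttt
TRBV12-2 with TRBJ2-5, mouse 7: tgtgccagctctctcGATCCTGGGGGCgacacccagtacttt
TRBV12-2 with TRBJ2-5, mouse 8: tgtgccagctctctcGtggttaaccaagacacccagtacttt
The junctions ranged from 1 base in the TRBV12-2 clone of mouse 8 to 14 bases in that of mouse 6, and the CDR3s from 13 to 17 amino acids.

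The TRBV12-2 clones of mice 7 and 8 were the largest. That of mouse 7 took 3.11% of reads in the left tumor (95% Wilson interval 3.06 to 3.16) and 3.09% in the right (3.04 to 3.15), the rank 4 of its CD8 tumor repertoire. That of mouse 8 took 2.79% of the left tumor (2.74 to 2.84) and 5.16% of the right tumor (5.10 to 5.22), rank 5. Mice 5 and 6 had TRBV12-2 clones of 0.634% and 0.452%, and of 1.36% and 0.841%, on the left and right. The 2 mice with the larger TRBV12-2 share carried the 2 larger leading clones.

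Leaving out the most abundant clone of each tumor reduced the range of the TRBV12-2 share among mice from 5.75 to 3.75 percentage points. The shares then stood at 3.75%, 2.89%, 6.64% and 3.42% in mice 5 to 8, so that mouse 8 lay near mouse 5 and mouse 7 was highest. Without all clones above 0.1%, mouse 7 still held 6.06% against 2.62% to 3.04% in the other mice. Clones above 0.1% held 64.5% of the TRBV12-2 reads of mouse 8 and 37.8% of those of mouse 7.

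For TRBV12-1 the leading clone of mouse 5 took 2.05% and 1.62% of the left and right CD8 tumor (Wilson intervals 1.99 to 2.11 and 1.56 to 1.68), rank 9 of the repertoire and 55.1% of all TRBV12-1 reads. The leading clones of mouse 6 (0.469% and 0.406%), mouse 7 (0.556% and 0.682%) and mouse 8 (1.05% and 0.934%) held 20.0%, 14.7% and 33.2% of TRBV12-1 reads. Without the leading clone the order of the mice changed, from mouse 7 at 3.59% to mouse 5, which went from 3.33% to the lowest value of 1.49%. The range was 2.02 percentage points with all clones, 2.09 without the leading clone and 1.48 without clones above 0.1%.

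All 8 leading CD8 tumor clones were found in both tumors of their mouse, and all were far rarer in the dLN. They were picked as the most abundant over both tumors, which favours this order. The highest dLN value was 0.0451%, for the TRBV12-1 clone of mouse 7, and the leading TRBV12-1 clone of mouse 8 had no read in either node, where 3 reads would be 0.000767% and 0.000603%. The leading TRBV12-2 clone of mouse 6 had no read in the right node, where 3 reads would be 0.000733%. The most abundant TRBV12 clones of the CD8 nodes were others, except for the TRBV12-1 clone of mouse 7, which led in both organs. The highest of them, a TRBV12-1 clone with TRBJ2-7 in mouse 8, took 0.226% and 0.191% of the left and right node and 0.151% and 0.130% of the tumors. The leading TRBV12-2 node clones of mice 5 to 8 averaged 0.106%, 0.0214%, 0.0226% and 0.0655% of the nodes. In the tumors they averaged 0.00680%, 0.000464%, 0.000221% and 0.00162%. The leading TRBV12-1 node clone of mouse 5 had no tumor read, and that of mouse 6 averaged 0.0754% of the nodes and 0.105% of the tumors.

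In CD4 cells no leading tumor clone reached 1%, and some were also among the leading clones of the dLN, at lower mean levels. The largest was a TRBV12-2 clone of mouse 7 with TRBJ2-4, at 0.911% and 0.968% of the tumors and 0.437% and 0.392% of the nodes. The leading TRBV12-2 clone of mouse 8, with TRBJ1-2, took 0.598% and 0.545% of the tumors and 0.449% and 0.453% of the nodes.
TRBV12-2 with TRBJ2-4, CD4, mouse 7: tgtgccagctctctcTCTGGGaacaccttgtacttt
TRBV12-2 with TRBJ1-2, CD4, mouse 8: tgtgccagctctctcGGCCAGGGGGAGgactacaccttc
These 2 clones ranked 9 in the CD4 tumor repertoires of their mice and also led the TRBV12-2 clones of their nodes. The leading CD4 tumor clones of mice 5 and 6 took at most 0.244% of a tumor for TRBV12-1 and 0.220% for TRBV12-2.

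**Figure D4:**
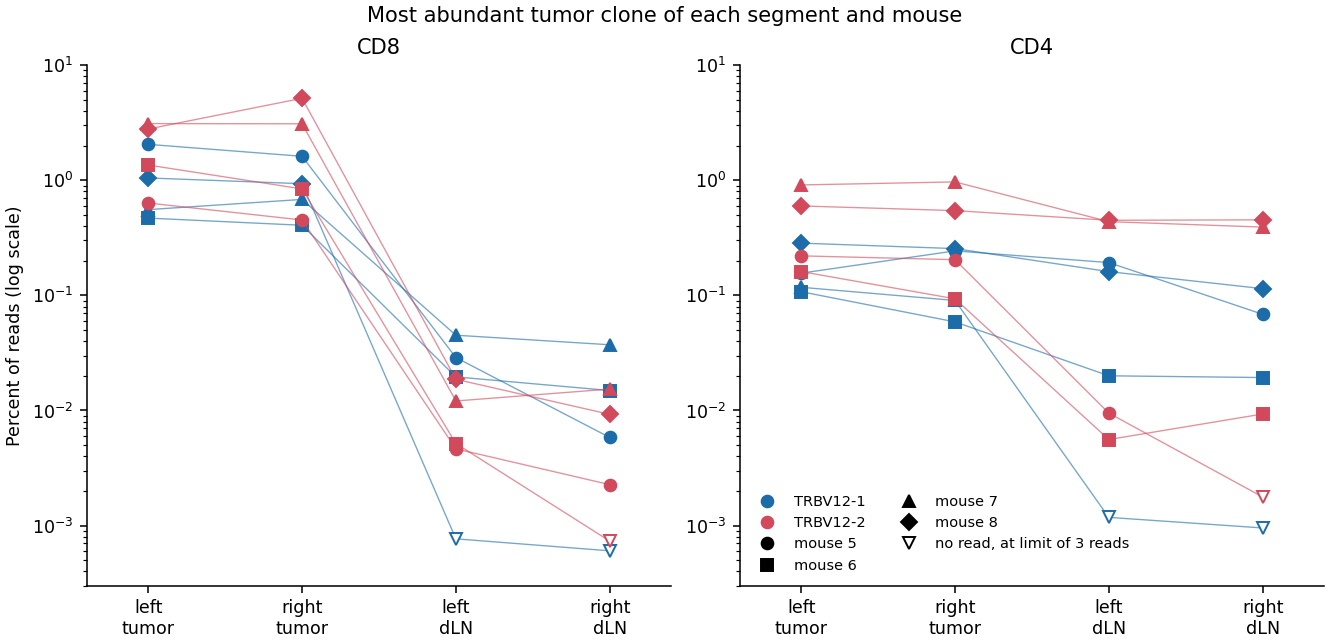
Percent of reads (log scale) of the most abundant tumor clone of each segment and mouse in the left and right tumor and dLN, for CD8 (left) and CD4 (right); colours give the segment and filled symbols the mouse, and open triangles mark organs with no read, drawn at the share of 3 reads. The 8 CD8 clones lie between 0.406% and 5.16% in the tumors and at 0.0451% or below in the dLN, whereas 4 CD4 clones lie at 0.0685% or above in both organs.

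Left and right tumors of a mouse were closer in their TRBV12 shares than tumors of different mice in the mean, which did not pass the test after adjustment. The TRBV12-2 share of CD8 tumor reads differed by 0.790 percentage points between the sides of 1 mouse on average and by 3.39 between sides of different mice. Mouse 8 alone differed by 2.11, from 6.34% on the left to 8.45% on the right, and without it the average between sides was 0.348. For TRBV12-1 the values were 0.275 and 1.09. In CD4 tumors they were 0.105 and 0.486 for TRBV12-2 and 0.103 and 0.279 for TRBV12-1, where the average between sides was 0.0628 without mouse 5. Over the 24 ways to pair left with right, the exact one-sided permutation p was 0.0417, the smallest possible, for TRBV12-2 in CD4 tumors and 0.0833 for the other 3, with an adjusted p of 0.0833 for each. The within minus between difference of TRBV12-2 in CD8 tumors was −2.60 percentage points with all mice and −1.30 without mouse 7. That of TRBV12-1 in CD8 tumors was −0.810, and −0.225 without the clones listed under both segments (exact permutation p = 0.500). The 2 fragments of a CD8 tumor differed by 0.484 ± 0.235 percentage points for TRBV12-1 and 0.348 ± 0.322 for TRBV12-2 (n = 8 tumors).

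In the mean, a smaller part of TRBV12 reads than of other reads in CD8 tumors belonged to clones found at another site. Of TRBV12-1 and TRBV12-2 CD8 tumor reads, 57.5% ± 8.41 and 58.3% ± 12.2 belonged to clones also found in the opposite tumor, against 84.7% ± 6.21 of the reads of all other V segments. For the dLN of the same side the values were 35.4% ± 18.5, 38.3% ± 18.9 and 67.6% ± 13.48. There the mice overlapped, from 14.8% to 58.5%, from 23.0% to 64.4% and from 47.4% to 76.0%. Counted as clones, 12.0% ± 2.73 of TRBV12-1 and 16.7% ± 2.85 of TRBV12-2 clones were found in the opposite tumor, against 14.0% ± 1.82 of the others. In CD4 tumors TRBV12-2 was like the rest, with 84.1% ± 5.37 of reads found in the opposite tumor against 84.6% ± 2.86, and TRBV12-1 was at 67.0% ± 6.82. No test was made of these shares, which move with clone size.

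TRBV12-1 clones with 4 shared CDR3 residues were found in the CD8 tumors of several mice. The leading clones of mice 5 and 8 carried leucine, arginine, glutamate and asparagine at positions 5 to 8 of the CDR3, and this group was chosen after its values were seen. The second TRBV12-1 clone of mouse 7 and a rarer clone of mouse 5 had the same 4 residues, and their CDR3 nucleotides are shown beside the sequences above.
TRBV12-1 with TRBJ1-1, mouse 7: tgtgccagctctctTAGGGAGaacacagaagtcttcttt
TRBV12-1 with TRBJ1-1, mouse 5: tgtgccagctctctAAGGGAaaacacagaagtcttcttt
The TRBJ1-1 clones of mice 5, 7 and 8 encoded the same CDR3 of 13 amino acids with different nucleotides, 2 differences between mice 5 and 7, 2 between mice 5 and 8 and 3 between mice 7 and 8. The TRBJ1-2 clone of mouse 5 differed from them at 4 residues, all after the shared ones. The arginine codon lies wholly in the marked junction of all 4 clones, the asparagine codon in the J part, and the leucine codon begins in V.

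Clones with these residues were abundant in the CD8 tumors of mice 5, 7 and 8 under TRBV12-1. The CD8 clones of TRBV12-1 with the 4 residues took 2.06% and 1.62% of the left and right tumor reads in mouse 5, 0.223% and 0.280% in mouse 7 and 1.05% and 0.934% in mouse 8. In mouse 6 there was none on the left and 1 clone at 0.000473% on the right. Counted per mouse, 11 TRBV12-1 clones, 9 TRBV12-2 clones and 23 clones of other V segments in CD8 tumors had these residues, each set in 4 mice. The amino acid clonotypes of CD8 tumors numbered 20222, 27476 and 217739. Clones of TRBV12-2 with the residues brought no tumor above 0.0021%, and those of other V segments none above 0.00313%. The residues were taken from the leading TRBV12-1 clones of mice 5 and 8, so the high shares in these mice follow from the choice. In the nodes the TRBV12-1 clones reached 0.0315% at most. In the left and right tumors they held 57.3% and 53.1% of the TRBV12-1 reads of mouse 5 and 33.0% and 33.6% of those of mouse 8. They held 5.29% and 6.67% in mouse 7 and 0.0209% in the right tumor of mouse 6.

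A pair of related clones also stood out in mouse 8. Its second TRBV12-2 clone in CD8 tumors, at 0.243% and 0.391%, had the same J segment and length as the leading clone and differed from it at 2 bases and 1 amino acid.
TRBV12-2 with TRBJ2-5, mouse 8, second clone: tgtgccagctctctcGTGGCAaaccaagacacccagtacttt
In CD4 cells, the leading TRBV12-1 clone of mouse 5 and the second of mouse 6 used TRBJ1-1 and encoded the same CDR3 of 14 amino acids with 1 base of difference.
TRBV12-1 with TRBJ1-1, CD4, mouse 5: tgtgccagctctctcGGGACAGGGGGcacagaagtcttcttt
TRBV12-1 with TRBJ1-1, CD4, mouse 6: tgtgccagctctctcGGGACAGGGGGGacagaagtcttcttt
They took 0.156% and 0.244% of the tumors and 0.193% and 0.0685% of the nodes in mouse 5, and 0.0697% and 0.0951% of the tumors and 0.0609% and 0.0317% of the nodes in mouse 6.

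Across all clones, the CDR3s that recurred in every mouse were mainly CD8, for TRBV12 and for the other V segments. In CD8 tumors 190 amino acid clonotypes of TRBV12-1 (0.940% of its 20222) and 389 of TRBV12-2 (1.42% of 27476) were found in all 4 mice, against 0.455% for the other V segments together. In CD8 dLN the numbers were 178 (1.15%) and 263 (1.61%), against 0.676%. In CD4 tumors 4 (0.284%) and 1 (0.0718%) recurred, against 0.169% for the other V segments, and in CD4 dLN 1 of each (0.0352% and 0.0507%), below the 0.284% of the others. In CD4 cells there were 1393 to 2841 clonotypes per TRBV12 segment, against 15532 to 27476 in CD8 cells. How far recurrence follows these numbers was not tested, so the subsets cannot be compared directly.

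In CD8 dLN each of the 2 segments differed from the other V segments in its J partners, and the segments were not tested against each other. TRBJ2-7 was the most used J in CD8 dLN for both, with 23.3% ± 0.592 of TRBV12-1 and 21.3% ± 0.930 of TRBV12-2 clones, against 21.3% ± 0.151 for all other V segments. TRBV12-1 used TRBJ1-1 in 5.52% ± 0.447 of clones against 10.1% ± 0.0767, TRBJ2-1 in 17.8% ± 0.572 against 13.8% ± 0.119, and TRBJ1-2 in 8.53% ± 0.172 against 5.33% ± 0.212. TRBV12-2 used TRBJ2-5 in 14.5% ± 0.247 against 11.2% ± 0.239, TRBJ1-1 in 8.50% ± 0.675 against 10.1% and TRBJ2-3 in 7.14% ± 0.363 against 8.69% ± 0.269. Each of these 6 shifts passed the exact permutation test (adjusted p = 0.0381 over 12 J segments). For each segment 9 of 12 J segments, 75%, did not overlap between its CD8 dLN clones and those of the other V segments. In CD4 dLN TRBV12-1 used TRBJ1-1 in 9.73% of clones against 9.78%, TRBJ2-1 in 9.72% against 9.47% and TRBJ1-2 in 4.70% against 5.26%. TRBV12-2 used TRBJ2-5 there in 15.5% against 13.2%, TRBJ1-1 in 7.06% against 9.78% and TRBJ2-3 in 8.71% against 9.07%. The CD4 J shares were not tested.

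In CD8 tumors TRBV12-1 used TRBJ2-1 in 18.1% ± 0.756 of clones against 15.0% ± 0.243 for the other V segments. Its TRBJ1-2 share there was 5.66% ± 0.366 against 4.90% ± 0.165, and its TRBJ1-1 share 6.54% ± 0.570 against 9.29% ± 0.0863. TRBV12-2 used TRBJ2-5 in 11.8% ± 0.408 of CD8 tumor clones against 10.9% ± 0.192 for the other V segments. Its larger distances from them there were at TRBJ2-1 (12.2% ± 0.325 against 15.0% ± 0.243) and TRBJ2-2 (7.87% ± 0.425 against 5.19% ± 0.0675), while its TRBJ1-1 share of 9.17% ± 0.129 overlapped the 9.29% ± 0.0863 of the others. The J shares in tumors were not tested. As a whole the TRBJ2 cluster took 72.1% ± 0.975 of TRBV12-1 and 69.9% ± 0.779 of TRBV12-2 clones in CD8 dLN, against 68.4% ± 0.537. The difference was 3.70 percentage points for TRBV12-1 (exact permutation p = 0.0286) and 1.44 for TRBV12-2 (p = 0.0571), with an adjusted p of 0.0571 for both.

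For each segment the mean CDR3 was longer in CD8 than in CD4 clones of the dLN. In the dLN the mean length of TRBV12-1 CDR3s was 13.98 ± 0.0333 amino acids in CD8 and 13.59 ± 0.0587 in CD4, and that of TRBV12-2 13.94 ± 0.0279 and 13.77 ± 0.112. The differences of 0.386 and 0.173 amino acids were positive in 4 of 4 mice (exact permutation p = 0.0286 each, adjusted p = 0.0571 over 4 length comparisons). All other V segments had means of 13.92 ± 0.0234 in CD8 and 13.79 ± 0.0222 in CD4. Between the segments the difference was 0.0397 amino acids in CD8 (exact permutation p = 0.114) and −0.173 in CD4 (p = 0.0571, adjusted p = 0.0762).

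In the dLN the share of long CDR3s was lower in CD4 than in CD8 clones in the mean. Of CD4 dLN clones, 6.27% ± 1.17 of TRBV12-1 and 7.29% ± 2.48 of TRBV12-2 had 16 or more amino acids, against 9.21% ± 0.353 of the others, with TRBV12-2 mice from 5.12% to 10.8% overlapping the others, while in CD8 dLN the values were 11.5% ± 0.569, 10.6% ± 0.257 and 12.4% ± 0.337. Short CDR3s of 11 or fewer were rarer in CD8 dLN TRBV12-1 clones, at 3.16% ± 0.202, than in the others, at 5.75% ± 0.196, with TRBV12-2 at 4.54% ± 0.370. In CD4 dLN the order of the means was the opposite, with 5.83% ± 0.644 of TRBV12-1 and 5.22% ± 1.99 of TRBV12-2 clones against 4.90% ± 0.288, and the mice overlapped. The stretch between V and J averaged 10.4 ± 0.0679 bases for TRBV12-1 and 10.4 ± 0.0735 for TRBV12-2 in CD8 tumors against 9.92 ± 0.0568 for the others, and 9.98 ± 0.0484 and 9.96 ± 0.0826 against 9.64 ± 0.0639 in CD8 dLN. These values were not tested.

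**Figure D5:**
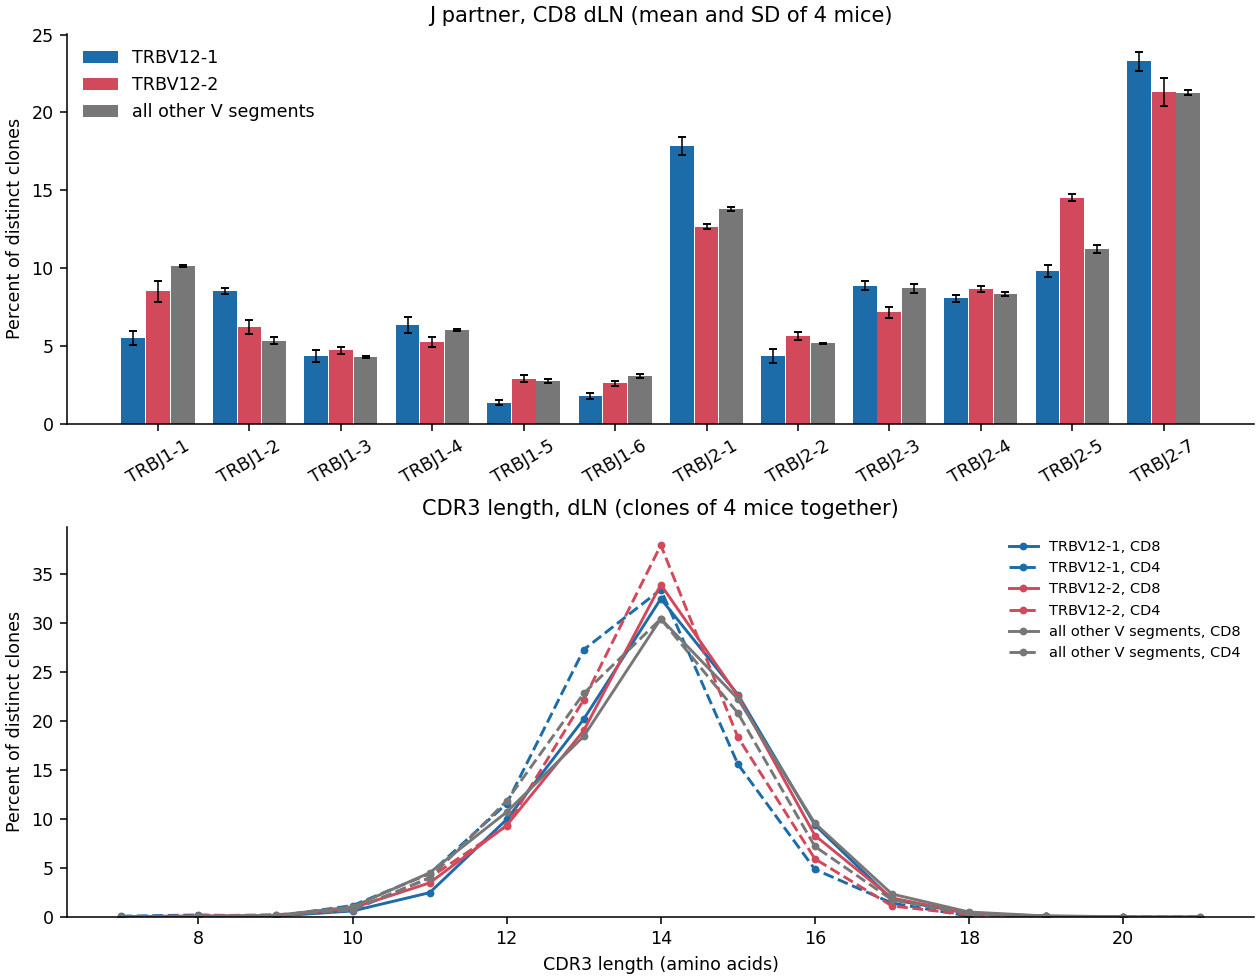
Top, percent of distinct CD8 dLN clones of TRBV12-1 (blue), TRBV12-2 (red) and all other V segments (grey) that used each J segment (bars, mean; error bars, SD of 4 mice). Bottom, CDR3 length in amino acids of dLN clones of 4 mice together, CD8 as full and CD4 as broken lines; TRBV12-1 stands out at TRBJ2-1 with 17.8% against 13.8%, and its CD4 curve lies furthest to the left, with a mean of 13.59.

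By the pattern of their clone shares over the 16 combinations of mouse, subset and organ, the 2 segments were most like each other. The Pearson correlation of the log2 percent of clones was 0.968 between them. The next were TRBV14 for TRBV12-1 (0.937) and TRBV17 for TRBV12-2 (0.935). These values describe 16 points from 4 mice that share libraries. They include the gap between CD8 and CD4, whose part in them was not tested.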

How the data were processed

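TCR beta libraries of sorted CD4+ and CD8+ T cells were made by the authors by nested PCR without molecular identifiers and sequenced. Adapters were trimmed by the authors with cutadapt 3.2 (per the submitters' processing notes), and per the study's methods reads were quality filtered with PRINSEQ, clones were called with MiXCR on the IMGT reference with V and J kept apart, only productive sequences were kept, and VDJtools drew equal reads per cell for the study's own comparisons. Each of the 48 deposited tables gives the read count of every clone, before that draw, and its fraction of the library, with the CDR3, the V and J names and the end of V and start of J in the CDR3. The deposited counts were the values used here, and each deposited fraction equals the count over the library total.

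Each library was drawn once without replacement, at a set seed, to the size of 6 reads for each sorted cell with numpy 2.4.6 in Python 3.11.15, fragments of a tumor were added, and left and right were averaged. Cell numbers came from the study's supplementary table. Groups were compared by exact two-sided permutation of mouse means over 70 divisions, with Benjamini-Hochberg adjustment over the 22 V segments with a mean of at least 0.1% of reads (threshold 0.05), and side likeness over 24 pairings. The samples of the 4 groups are paired because the same number is the same mouse, and with 16 sign changes a paired test cannot go below 0.125, so the unpaired test was used. Over V segments, deviations of clone shares from the group mean correlated between groups of a mouse with r from −0.338 to 0.591. The 4 mice are separate animals, and every group holds the same 4. edgeR 4.0.16 (R 4.3.3) was an alternative, as were the settings in the closing section. Scripts were tested on simulated data. Named clones were the most abundant of each segment, mouse and subset over both tumors, and those above 1%. Other clones, such as leading node clones and clones related in sequence, were named after their values were seen. Named J segments were the most used and the 3 that differed most. The segments, lists, rules and tests were chosen with earlier results of these data known. Gene positions are from GENCODE on GRCm38, and the files hold no coordinates.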

Additional observations from a re-analysis of the deposited data

Results flagged for a closer look

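The CD8 over CD4 ratio of distinct clones was set against itself between tumor and dLN by a test of the difference, which reached its smallest p for both segments and did not pass after adjustment. The log2 ratio was larger in the tumors by 0.82 for TRBV12-1 and by 0.73 for TRBV12-2 in 4 of 4 mice (exact permutation p = 0.0286 each, n = 4, adjusted p = 0.0571 over 4 ratios). By reads the TRBV12-2 log2 ratio was smaller in the tumors by a difference of −0.54 (exact permutation p = 0.0571). The 16 groups of 4 mouse shares held none with a single mouse far from the other 3 by Dixon's criterion at 95%.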

How the results depend on the processing

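Of 510 values under other settings for 30 results, none turned a call around, 484 kept their direction and side of the threshold or moved by less than the spread of the mice, 20 newly passed, 4 no longer passed and 2 moved. The CD8 minus CD4 differences in the dLN and in tumor clones passed in all 15 tested settings each, with adjusted p from 1.2e-49 to 0.0393. By reads in the tumors edgeR passed with log2 ratios of 1.92 and 1.73 (TMM), 1.85 and 1.70 (library sizes only) and 1.94 and 1.72 (mouse as replicate block) for TRBV12-1 and TRBV12-2. For TRBV12-1 reads between organs it passed in CD4 with −1.07 (TMM), −1.11 (library sizes) and −1.08 (replicate block), and in CD8 with −1.10 (library sizes); without the most abundant clone of each V segment the CD8 difference was −3.17 points and passed. TRBV12-2 reads in CD8 went to 0.11 (TMM) and 0.10 (replicate block) on the log2 scale, where TMM shifts the segments by a median of 0.74. Tumor minus dLN clones of TRBV12-1 no longer passed in CD8 with a minimum of 6 reads (0.612), and in CD4 with minimums of 2 and 6 reads (−1.01 and −0.986) or no filter on V segments (−1.03, adjusted p = 0.0510). Without clones listed under both segments the log2 ratio differences were 0.80 and 0.73 by clones and −1.14 for TRBV12-2 by reads, and passed; dropping just the rarer clone of each pair was added after seeing the data and changed no call. With minimums of 2 and 6 reads the CDR3 length differences passed at −0.192 and −0.213 (segments, CD4), 0.392 and 0.405 (TRBV12-1) and 0.160 and 0.150 (TRBV12-2). The causes of these changes were not tested. With TMM, tumor clones gave 9 segments higher and 9 lower in CD8, against 6 and 13 by the exact test. Pairing by mouse with sign changes, a replicate block, gave p = 0.125 at the least. Left against right differences of reads stayed negative over the tested settings, and that of TRBV12-1 in CD8 tumors went from −0.810 to −0.225 points without clones listed under both segments. With 4 mice per group every p is limited.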
